A study of Mus musculus with 14 samples.

Results

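Ovalbumin-specific CD8+ T cells that had met no experimental antigen were profiled in 3 of the 14 libraries of the series, the group labelled Naive. The group was taken from its labels, which give saline as the treatment, and all of its genes were then ranked by their mean log2 RPKM over these libraries. RPKM counts reads per kilobase of transcript relative to the reads in its library, so levels of different genes can be set side by side. The cells were OT-I T cells, which carry a transgenic receptor for the ovalbumin peptide SIINFEKL. They were selected from spleens of OTI mice, labelled with the division dye CFSE and transferred on day 0 into CD45.2+ C57BL6j recipients. The labels give an age of 8 to 12 weeks. On day 1 the recipients received saline (Naive, 3 libraries) or 223 pmol of OVA (3 libraries), ERY1-OVA (3), SIINFEKL (2) or TER119-SIINFEKL (3). On day 4 splenic cells positive for CD3e, CD8 and CD45.1 were sorted. Transfer, dye and sorting were thus shared by all groups. Receptor specificity was not among the markers of the sort. The labels do not say whether each library came from 1 recipient, so the spread between libraries may be partly technical.

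Before they meet antigen, naive CD8+ T cells circulate between blood and lymphoid organs, kept alive by interleukin-7 and by contact with self peptides on MHC class I. Transcription factors such as KLF2, TCF-1 and LEF-1 maintain their homing receptors and their rest outside the cell cycle. Engagement of the T cell receptor ends that rest, and the cells grow, divide and make cytokines, granzymes and inhibitory receptors.

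Values were present for 10106 genes, and genes without a row were not analysed here. The geometric mean over the 3 libraries reached at least 1 RPKM for 9626 genes (95.3%), 10 RPKM for 5751 genes, 100 RPKM for 706 genes and 1000 RPKM for 139 genes, with a median of 12.6 RPKM over all genes. The libraries were alike, with Pearson correlations across genes of 0.986 to 0.990, but each departed from the others in its own gene groups, as set out further on. The files used here give no counts, and sequencing depth is therefore unknown.

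The markers of the sorted cell were abundant. Cd8b1, which encodes the CD8 beta chain, stood at 1038, 960.1 and 1048 RPKM in replicates 1, 2 and 3 of Naive and held rank 139. Cd8a, the alpha chain, stood at 399, 354 and 372 RPKM, and Cd3e, a signalling chain of the T cell receptor complex, at 431, 407 and 405 RPKM. The replicates lay close together for each of these chains, with SDs of 0.05 to 0.09 on the log2 scale. Of 36 genes of the receptor complex, its coreceptors and proximal signalling, 23 were at 100 RPKM or more and none was under 10 RPKM, against a median of 12.6 RPKM over all genes. Thy1 (647 RPKM as geometric mean), Cd3g (589 RPKM) and Ptprc (504 RPKM), which encodes CD45, followed Cd8b1, and the lowest were Malt1 (31.7 RPKM) and Cd28 (33.9 RPKM).

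Markers of other splenic cells were low. Values were present for 20 of 75 such markers, and their summed level lay between 107 and 120.1 RPKM in the Naive libraries, against 84.5 to 171 RPKM in the 11 libraries of the antigen groups. Cd4 stood at 0.38, 0.20 and 0.40 RPKM and the B cell gene Cd22 at 0.32, 0.43 and 0.37 RPKM. The B cell gene Cd79b reached 9.18 RPKM, the MHC class II chaperone Cd74 10.1 RPKM and the macrophage gene Lyz2 2.82 RPKM, each as the geometric mean. Pecam1 was the highest of the markers at 29.7 RPKM. The haemoglobin genes Hba-a1 and Hba-a2 stood at 4.26 and 4.79 RPKM after lysis of erythrocytes.

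Transcripts of mitochondrial respiration and protein synthesis filled the top of the ranking. mt-Co1, a mitochondrially encoded subunit of cytochrome c oxidase, ranked first at 18398, 12935 and 13703 RPKM in replicates 1, 2 and 3. mt-Atp6, a subunit of ATP synthase, followed at 15852, 11125 and 12814 RPKM. Eef1a1, which brings aminoacyl-tRNA to the ribosome, came next at 14136, 11737 and 13219 RPKM. For each of these transcripts replicate 2 was the lowest. They were followed by mt-Co2 (9617 RPKM as geometric mean), mt-Atp8 (8627 RPKM), Tpt1 (7374 RPKM), which encodes the translationally controlled tumour protein, and Rplp1 (6384 RPKM), a protein of the ribosomal stalk.

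The 10 most abundant genes held 12.7 ± 0.96% of the summed RPKM, and the 100 most abundant held 51.8, 46.8 and 49.7% in replicates 1, 2 and 3 (mean 49.4 ± 2.53%, SD, n = 3). The 84 genes of the cytosolic ribosomal protein list held 28.2 ± 1.61%, and the 10 mitochondrially encoded genes 8.41 ± 0.96%. By annotation, 54 of the 100 were ribosomal protein genes, 7 were mitochondrially encoded, 4 were translation factors or associated with the ribosome, 19 were pseudogenes and 16 were other genes. The ribosomal list itself had 56 members among the 100, since Rps3a2 and Rps3a3 carry ribosomal symbols and are annotated as pseudogenes. These shares are of RPKM summed over genes, not of reads.

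**Figure D1:**
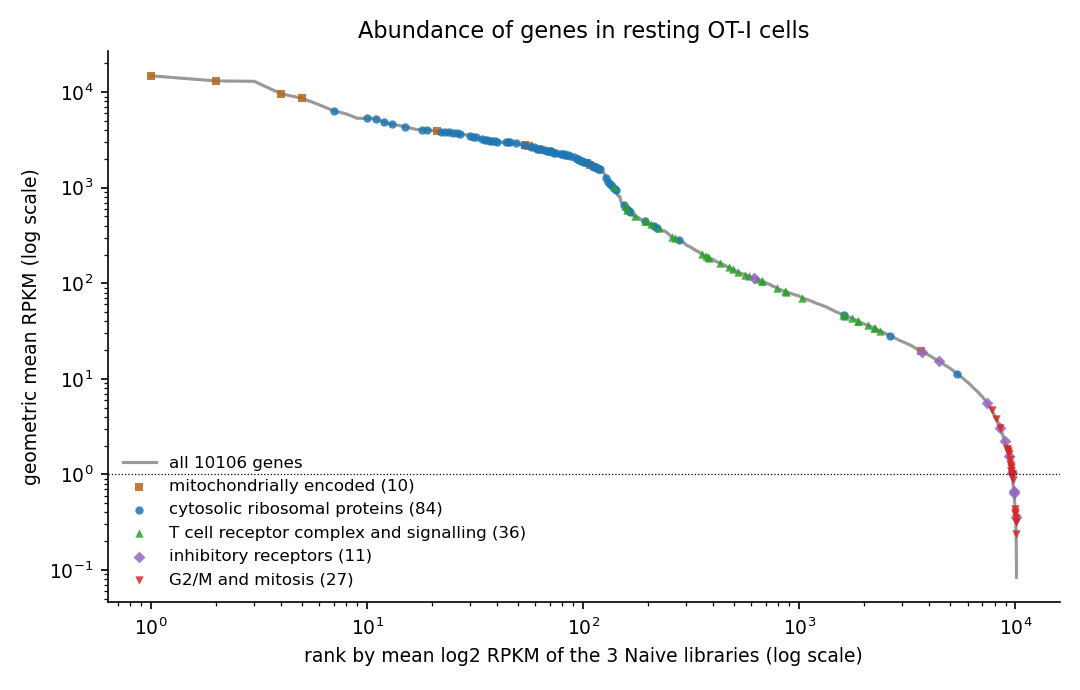
Geometric mean RPKM of each gene in the 3 Naive libraries (vertical, log scale) against its rank (horizontal, log scale), with 5 gene groups marked and 1 RPKM as a dotted line. Mitochondrially encoded and ribosomal protein genes fill the top, T cell receptor genes lie between 31.7 and 1014 RPKM, and the 27 genes of G2/M and mitosis lie at 4.73 RPKM or lower.

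Many entries near the top cannot be read as separate genes. Of the 100 most abundant, 39 moved in step with another entry over the 14 libraries, with an SD of their log2 difference under 0.02, and 15 of these were annotated pseudogenes. Gm10275, a pseudogene on chr10:29698746-29699380, ranked ninth at 5329 RPKM and moved in step with Rpl12 (2647 RPKM). Rps12-ps3 (2444 RPKM) moved with Rps12 (2441 RPKM). How reads that fit several places were counted is not given in the sources used here, so the level of each member of such pairs is uncertain. Rpl24 (11.4 RPKM), a ribosomal gene with many processed copies, was the lowest of the 84 listed, against a list median of 2311 RPKM. Gapdh (31.2 RPKM), a glycolytic gene with many processed copies, lay near the median of 34.7 RPKM of the 20 listed glycolysis genes.

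Ribosomal protein mRNAs are known for a pyrimidine tract at their 5′ end, through which their translation is controlled together. The starts of 5 abundant members, picked among those with such a tract, are shown because this gene group dominated the resting profile. Each line runs 5′ to 3′ from 25 bases before to 25 bases after the start given by RefSeq (GRCm38.p6), with the run of 8 or more C or T bases at the start in capitals.
Rps27: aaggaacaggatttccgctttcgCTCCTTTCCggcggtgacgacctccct
Rps24: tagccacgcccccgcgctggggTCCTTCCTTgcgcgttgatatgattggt
Rps18: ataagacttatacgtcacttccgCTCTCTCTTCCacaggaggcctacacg
Rps6: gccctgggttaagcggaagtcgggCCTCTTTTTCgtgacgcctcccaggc
Rps10: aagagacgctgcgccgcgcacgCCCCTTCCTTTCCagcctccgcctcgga
The windows are Rps27 at chr3:90213624-90213673 (minus strand), Rps24 at chr14:24490653-24490702 (plus strand), Rps18 at chr17:33955641-33955690 (minus strand), Rps6 at chr4:86857343-86857392 (minus strand) and Rps10 at chr17:27635220-27635269 (minus strand). Such a run overlapped the 10 bases on either side of the start in 30 of 61 ribosomal protein genes with a promoter entry (49.2%), against 16.6% of 7554 genes of the table with an entry and 15.8% of all 27025 genes with one. In Rps27 (5894, 4424 and 5756 RPKM in replicates 1, 2 and 3) the capitals run from base -2 to base 7, counted from the start as base 1. Rps24 (6381, 4270 and 5358 RPKM) and Rps18 (5431, 3760 and 4758 RPKM) carry theirs from -3 to 6 and from -2 to 9. The run spans the start in all windows shown. Runs wholly before the start, as in Rpl19 (-11 to -1) and Rpl13 (-16 to -7), were counted too. Those runs lie outside the mRNA by the RefSeq start. The match describes the letters in the windows, not their use in these cells.

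Genes of the actin cytoskeleton and of antigen presentation also ranked high, below pseudogenes and predicted genes such as Gm9846 (5923 RPKM, rank 8) that lie outside the ribosomal, translation and mitochondrial lists. Tmsb4x, which encodes the actin monomer binding protein thymosin beta 4, stood at 4929, 3424 and 3727 RPKM. Actb reached 2816, 3495 and 2709 RPKM, Tmsb10 2773, 2420.2 and 2792 RPKM, and the actin regulator Pfn1 1738, 1682 and 1781 RPKM. Of 34 listed genes of the actin cytoskeleton, 32 were at 100 RPKM or more, and the lowest was Was at 72.9, 72.8 and 79.6 RPKM, the gene mutated in Wiskott-Aldrich syndrome. Actb was highest in replicate 2, the library in which Tmsb4x and Tmsb10 were lowest.

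Of 24 genes of MHC class I and antigen presentation, 13 were at 100 RPKM or more and none was under 10 RPKM. B2m, the light chain of MHC class I, stood at 2879, 2901 and 3184 RPKM, H2-K1 at 2076, 2108 and 2238 RPKM and H2-D1 at 1042, 949.6 and 1119 RPKM. The replicates differed little for these genes, with SDs of 0.06 to 0.12 on the log2 scale. The chaperone gene Hspa8 (1993 RPKM), Shisa5 (1825 RPKM) and Cd52 (1467 RPKM), which encodes a small glycoprotein of the lymphocyte surface, were also among the 20 highest genes outside the ribosomal, translation and mitochondrial lists when pseudogenes were set aside. Of 8 Gimap genes, GTPases needed for lymphocyte survival, Gimap4 was highest at 515 RPKM and Gimap8 lowest at 59.1 RPKM.

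Genes of the naive and memory state were high as a group. Of 40 listed genes, 18 were at 100 RPKM or more and only Runx1 (6.05 RPKM) was under 10 RPKM, and the list median was 82.6 RPKM, against 12.6 RPKM over all genes. Tcf7, which encodes TCF-1, stood at 677, 742 and 764 RPKM in replicates 1, 2 and 3. Il7r, the receptor chain for interleukin-7, stood at 139, 164 and 161 RPKM. Ets1 (552 RPKM) and Ly6c2 (456 RPKM) were also among the 4 highest, while Bach2 (14.1 RPKM), Itga6 (13.2 RPKM) and Gata3 (12.4 RPKM) were the lowest above Runx1.

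Quiescence factors covered a wider range, with 11 of 38 at 100 RPKM or more and 5 under 10 RPKM. Klf2, the transcription factor that maintains homing receptors such as S1pr1, stood at 259, 306 and 345 RPKM. Dgka, which removes the second messenger diacylglycerol, stood at 224, 227 and 218 RPKM, the antiproliferative gene Btg1 at 205, 223 and 219.8 RPKM, and Pdcd4, an inhibitor of translation initiation, at 191, 208 and 197 RPKM. Klf4, which restrains division of naive CD8+ T cells, was low and uneven at 2.15, 0.75 and 6.63 RPKM. Cdkn2c (2.88 RPKM), an inhibitor of CDK4 and CDK6, and Tsc1 (6.53 RPKM), a negative regulator of mTORC1, were the next lowest.

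Receptors for survival and inflammatory cytokines were well represented. Il2rg, the common gamma chain, stood at 453, 473 and 446 RPKM, and Ifngr1, a chain of the interferon gamma receptor, at 263, 287 and 286 RPKM. Il2rb, the beta chain of the interleukin-2 and interleukin-15 receptor, stood at 142, 183 and 215 RPKM, while Il2ra, the alpha chain induced on activation, stood at 0.99, 2.16 and 1.59 RPKM. The alpha chain was thus the lowest of 35 cytokine receptor and proximal signalling genes and the beta chain the fourth highest. Among 24 chemokine and trafficking receptors, Selplg (382 RPKM), a selectin ligand, and Itgb7 (297 RPKM), an integrin chain of gut homing, were among the 4 highest, and Ccr2 (3.01 RPKM) and S1pr5 (5.75 RPKM), known from effector T cells, were the lowest.

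Metabolic and proteostatic genes were mostly at moderate levels. Of 74 nuclear genes of oxidative phosphorylation, 73 were at 10 RPKM or more, led by Uqcrh (435 RPKM) of complex III and Atp5b (411 RPKM) of ATP synthase. The glycolytic genes Ldha (354 RPKM), Eno1 (316 RPKM), Aldoa (250.4 RPKM) and Gpi1 (239 RPKM) were abundant, whereas Hk2 (1.18 RPKM), the inducible hexokinase, and Slc16a3 (0.33, 0.54 and 0.41 RPKM), the lactate exporter, were near the bottom. Of the proteasome, 36 of 37 subunit genes were at 10 RPKM or more, and the immunoproteasome subunit Psmb8 was highest at 209, 198 and 210.4 RPKM. Ccnd2 (118 RPKM), Ccnd3 (112 RPKM) and Cdk4 (109 RPKM), which drive exit from rest, were present at levels far above Cdk2 (6.01 RPKM) and Cdk6 (3.97 RPKM).

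Of 103 genes of activation and effector function with values, Pdcd1, Lag3, Entpd1, Nrp1, Tnfsf11 and Gzmk were under 1 RPKM in each Naive library. These 6 were 5.83% of the list, against 3.50% of all genes in the table. A mean under 10 RPKM was found for 49 (47.6%), against 43.1% of all genes, so the members with values lay near the background. Listed genes without a row are in neither share, among them 14 of 31 cytokine and chemokine genes and 6 of 27 cytotoxic effector genes. Pdcd1, which encodes the inhibitory receptor PD-1 (chr1:94038305-94052553), stood at 0.29, 0.38 and 0.42 RPKM, and Lag3, another inhibitory receptor (chr6:124904361-124911705), at 0.79, 0.49 and 0.65 RPKM. Entpd1, the ectonucleotidase CD39, stood at 0.57, 0.56 and 0.91 RPKM, Nrp1, a semaphorin receptor, at 0.74, 0.66 and 0.55 RPKM, the cytokine gene Tnfsf11 at 0.48, 0.32 and 0.39 RPKM, and Gzmk, which encodes granzyme K, at 0.84, 0.85 and 0.78 RPKM.

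The other inhibitory receptors were not uniformly low. Cd96, a receptor for CD155, stood at 120.2, 111 and 111 RPKM, Cd160 at 20.4, 16.2 and 21.1 RPKM and Btla at 16.6, 16.6 and 13.0 RPKM. Ctla4 stood at 1.85, 1.36 and 4.38 RPKM and Tigit at 1.20, 0.93 and 3.33 RPKM, both highest in replicate 3. Of the 11 inhibitory receptor genes, 8 had a mean under 10 RPKM and 3 were under 1 RPKM throughout.

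Several effector products were abundant in the same libraries. Ccl5, a chemokine of memory and effector T cells, stood at 493, 440.3 and 851 RPKM in replicates 1, 2 and 3 and held rank 161. Nkg7, a membrane protein of cytotoxic granules, stood at 609, 498 and 573 RPKM, and Ltb, which encodes lymphotoxin beta, at 518, 495 and 517 RPKM. Replicate 3 exceeded the others for Ccl5, while Ltb was even. The granule genes Ctsd (269.9 RPKM), Srgn (269.0 RPKM) and Ctsw (216 RPKM) followed Nkg7. In bulk RNA, a transcript present in a few cells and one present at a low level in all cells cannot be told apart.

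Further genes of this kind were chosen after their values were seen. Gzma, which encodes granzyme A, stood at 87.7, 42.7 and 55.5 RPKM, the chemokine receptor Cxcr3 at 19.6, 32.1 and 47.5 RPKM, Gzmb at 11.6, 6.81 and 9.24 RPKM and Ifng at 3.51, 2.09 and 10.1 RPKM. Prf1, which encodes perforin, reached 39.4 RPKM as geometric mean and Eomes, a transcription factor of memory CD8+ T cells, 25.8 RPKM. Among effector and exhaustion transcription factors by level, Myc (73.5, 77.6 and 83.8 RPKM) and Stat4 (56.2, 68.3 and 59.3 RPKM) were highest, and Prdm1 (0.94, 0.94 and 1.62 RPKM), which encodes Blimp-1, and Irf4 (1.64, 1.53 and 1.82 RPKM), which is induced by receptor signalling, were lowest.

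**Figure D2:**
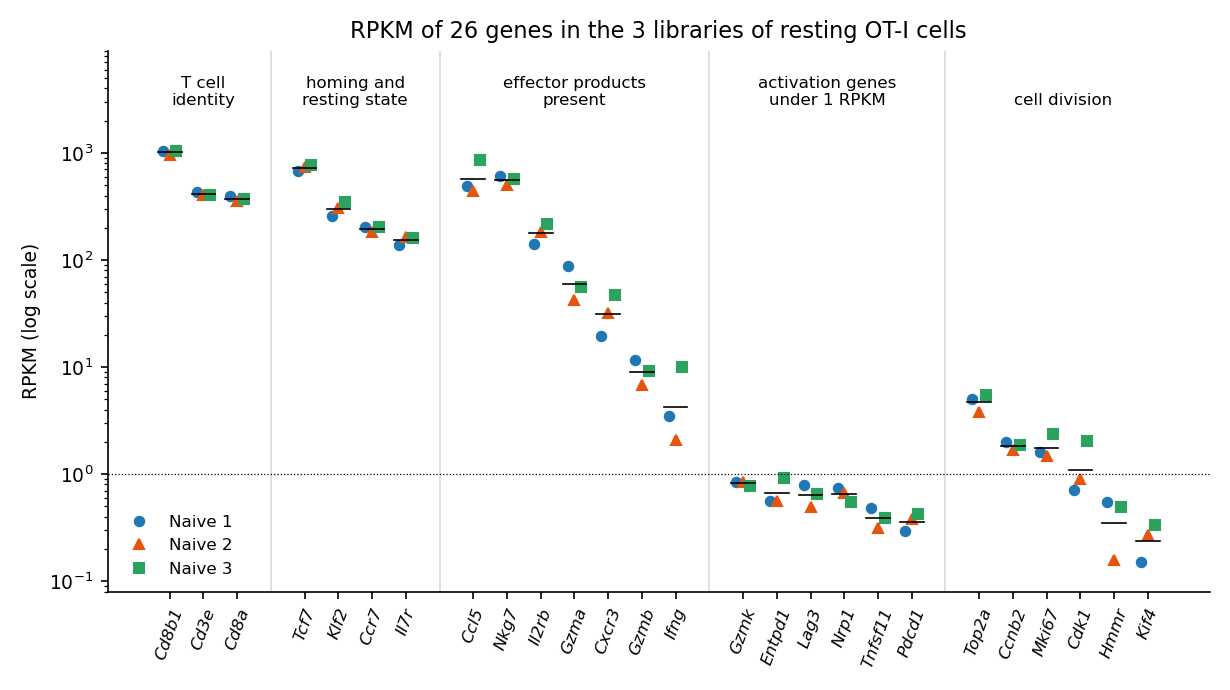
RPKM (vertical, log scale) of 26 genes in each of the 3 Naive libraries, with the geometric mean as a bar and 1 RPKM as a dotted line. Cd8b1 lies near 1014 RPKM, and the effector products Ccl5 and Nkg7 lie in the same range as the homing genes. Gzma, Cxcr3, Gzmb and Ifng lie below Il7r, and Pdcd1 and Kif4 lie below 1 RPKM in each library.

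Genes of mitosis were near the bottom of the ranking, and replication genes spread more widely. Of 59 genes of DNA replication and mitosis, 14 (23.7%) were under 1 RPKM in each Naive library, against 3.50% of all genes, and 48 (81.4%) had a mean under 10 RPKM, against 43.1% of all genes. The filter behind the deposited values is not given, and genes low in every group may lack a row. A gene under 1 RPKM in Naive may have its row through the antigen libraries. The shares of all genes, here and for the activation genes, thus cover only genes with values. All 27 genes of G2/M and mitosis had a mean under 10 RPKM, with a median of 1.09 RPKM. Top2a, the topoisomerase that untangles chromosomes, was the highest of them at 5.03, 3.83 and 5.49 RPKM. Kif4, a mitotic kinesin, was the lowest at 0.15, 0.27 and 0.34 RPKM, followed by Cenpf (0.22, 0.36 and 0.41 RPKM), a protein of the kinetochore, and Kif2c (0.20, 0.26 and 0.64 RPKM), which depolymerizes microtubules. Mki67, the common marker of cycling cells, stood at 1.60, 1.48 and 2.35 RPKM.

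Replication genes were less uniform than mitotic ones in level. Pcna, the sliding clamp of DNA polymerase, stood at 103, 100.1 and 96.6 RPKM, and the helicase subunits Mcm6 (36.3, 41.4 and 37.6 RPKM) and Mcm7 (29.4, 32.9 and 34.6 RPKM) followed. E2f8 (0.10, 0.20 and 0.48 RPKM), a repressor of the late cell cycle, Orc1 (0.26, 0.33 and 0.24 RPKM), a subunit of the origin recognition complex, and Mcm10 (0.29, 0.30 and 0.36 RPKM), which loads at origins, were the lowest. Of the 32 replication genes, 11 had a mean of at least 10 RPKM and 6 were under 1 RPKM in each library.

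Promoters of late cell cycle genes are known for the element TTTGAA, the cell cycle genes homology region, at which the DREAM complex represses them in resting cells. Windows of 6 members of the mitotic list, picked among those with the element, are shown because the list was the lowest of the division groups. Each line runs 5′ to 3′ from 65 bases before to 25 bases after the RefSeq start (GRCm38.p6), with TTTGAA or its reverse complement TTCAAA in capitals.
Cdk1: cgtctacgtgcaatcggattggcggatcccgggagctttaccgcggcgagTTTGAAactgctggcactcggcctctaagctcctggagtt
Top2a: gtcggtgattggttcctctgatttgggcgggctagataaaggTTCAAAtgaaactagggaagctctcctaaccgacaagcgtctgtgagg
Cdc20: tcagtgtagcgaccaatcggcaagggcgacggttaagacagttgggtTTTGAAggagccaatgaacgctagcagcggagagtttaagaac
Prc1: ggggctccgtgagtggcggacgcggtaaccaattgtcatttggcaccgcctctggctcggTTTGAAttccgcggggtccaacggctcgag
Ccnb2: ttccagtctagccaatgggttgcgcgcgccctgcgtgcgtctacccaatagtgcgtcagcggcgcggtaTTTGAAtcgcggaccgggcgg
Hmmr: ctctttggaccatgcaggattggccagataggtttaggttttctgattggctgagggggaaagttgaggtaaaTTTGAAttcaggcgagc
The windows are Cdk1 at chr10:69352888-69352977 (minus strand), Top2a at chr11:99024165-99024254 (minus strand), Cdc20 at chr4:118437319-118437408 (minus strand), Prc1 at chr7:80294386-80294475 (plus strand), Ccnb2 at chr9:70421530-70421619 (minus strand) and Hmmr at chr11:40733413-40733502 (minus strand). Searched on both strands over the whole 300 bases, the letters were found in 17 of 22 mitotic genes with an entry (77.3%) and in 4 of 26 replication genes (15.4%), against 14.1% of the genes of the table and 20.2% of all genes with an entry. CCAAT, searched in the same way, was found in 17 of 22 mitotic genes and 17 of 26 replication genes, against 43.7% of the genes of the table and 41.1% of all genes with an entry. The element lies before the start in Cdk1 (bases -15 to -10), Top2a (-23 to -18) and Cdc20 (-18 to -13), spans it in Prc1 and lies after it in Ccnb2 and Hmmr. These genes stood at 1.09, 4.73, 3.81, 0.88, 1.84 and 0.35 RPKM as geometric means, in the order of the lines. Binding at these sites was not measured.

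The spread between the 3 libraries was small for most genes. Over 9626 genes with a mean of at least 1 RPKM, the median SD of log2 RPKM was 0.14, with 2881 genes (29.9%) under 0.1 and 18 genes above 1. The median SD was 0.28 for genes of 1 to 2 RPKM, 0.17 for 2 to 10 RPKM, 0.12 for 10 to 100 RPKM and 0.13 above. It was 0.16 to 0.18 in the antigen groups, computed in the same way, but over only 2 libraries in SIINFEKL, where it is lower by construction. The square root of the mean variance was 0.39 in SIINFEKL, against 0.22 in Naive and 0.22 to 0.25 in the other groups. The genes of the receptor complex and its signalling were among the most even, with a median SD of 0.09 and 4 of 36 above the median of all genes.

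The genes with the largest SD encode heat shock proteins, transcription factors of the immediate-early class, histones and immunoglobulin joining chain. Hspa1b (chr17:34956436-34959238), an inducible HSP70, stood at 0.11, 49.0 and 1.07 RPKM in replicates 1, 2 and 3, and its near-identical neighbour Hspa1a at 0.17, 40.5 and 1.01 RPKM, so that reads may be split between them. Fosb, a subunit of the AP-1 transcription factor, stood at 16.1, 3.37 and 50.8 RPKM. Igj, the joining chain of plasma cell immunoglobulin, stood at 1.52, 3.05 and 17.2 RPKM. Klf4 followed, and then Hist1h4c (3.63, 0.78 and 3.44 RPKM), 3 further genes of the same histone cluster and Tnfrsf4 (2.78, 0.75 and 3.57 RPKM), which encodes the costimulatory receptor OX40. Replication-dependent histone mRNAs mostly lack the poly(A) tail by which the libraries were selected. Many genes of the same histone type in this cluster are near-identical. At the other end, Golga2 (11.2 RPKM in each library) had an SD among the 5 smallest of genes of at least 10 RPKM.

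**Figure D3:**
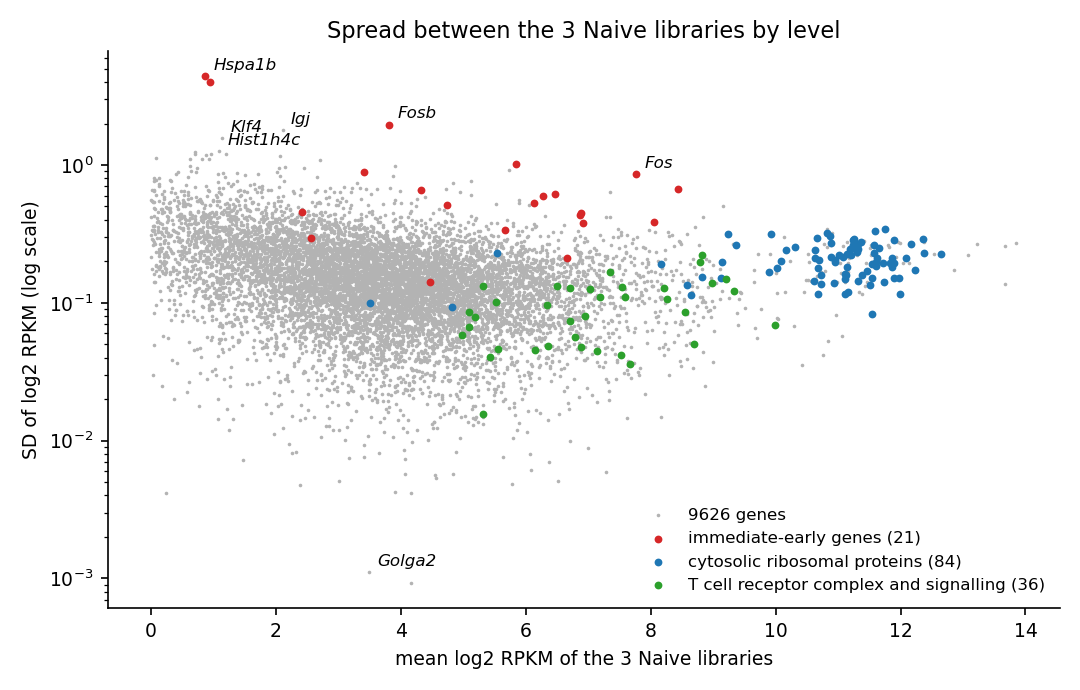
SD of log2 RPKM over the 3 Naive libraries (vertical, log scale) against mean log2 RPKM (horizontal) for 9626 genes, with 3 gene groups in colour. Immediate-early genes lie above most genes of their level, Hspa1b and Fosb the highest, and genes of the T cell receptor complex lie low.

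Replicate 3 was set apart by immediate-early and stress genes, which are switched on soon after stimulation or handling. Of the 21 listed, 19 were highest in replicate 3, against 31.4% of all genes, and the 2 exceptions were Hspa1a and Hspa1b. Their median difference from the mean of the other replicates was 0.77 on the log2 scale, against 0.01 for all genes. Junb, an AP-1 subunit, stood at 278, 251 and 589.9 RPKM in replicates 1, 2 and 3, Fos at 188, 132 and 418 RPKM, Zfp36, which destabilizes cytokine mRNAs, at 238, 220.0 and 363 RPKM, and Ier2 at 103, 105 and 164 RPKM. Replicate 3 was also highest for 19 of 27 mitotic genes, with a median difference of 0.48, and for 10 of 17 cytokine and chemokine genes, among them Cxcl10 (1.10, 1.21 and 4.72 RPKM).

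Replicate 2 was low in transcripts of ribosomes and mitochondria. It was the lowest of the replicates for 82 of 84 ribosomal protein genes, 67 of 74 genes of oxidative phosphorylation and 10 of 10 mitochondrially encoded genes, against 35.9% of all genes. The median differences from the other replicates were -0.34, -0.26 and -0.31 on the log2 scale. Chosen after their values were seen, the heat shock genes Dnajb1 (53.9, 100.4 and 54.7 RPKM), Hsph1 (64.9, 89.3 and 55.8 RPKM) and Hsp90aa1 (152, 213 and 146 RPKM) were highest in replicate 2, while the co-chaperone gene Bag3 (1.41, 3.45 and 3.64 RPKM) was highest in replicate 3. Sox13 (2.93, 8.16 and 3.06 RPKM), a transcription factor of innate-like lymphocytes, was highest in replicate 2. The difference of replicate 2 from the other replicates went with exon length across genes. Its Spearman rho was 0.33 over 9549 genes, against -0.18 in replicate 1 and -0.20 in replicate 3. The part of exon length in these differences was not tested.

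Replicate 1 was highest for 59 of 84 ribosomal protein genes and 9 of 10 mitochondrially encoded genes, against 32.7% of all genes. Its largest excess over the other replicates was in histone genes such as Hist1h4h (4.14 RPKM, against 0.89 and 1.87 RPKM in replicates 2 and 3). It was lowest for Tmem176b (2.89, 12.8 and 7.59 RPKM) and Cfd (2.58, 7.18 and 8.90 RPKM), which encodes complement factor D. The receptor complex and the naive and memory genes showed no such order, with median differences between -0.04 and 0.04 in each replicate.

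**Figure D4:**
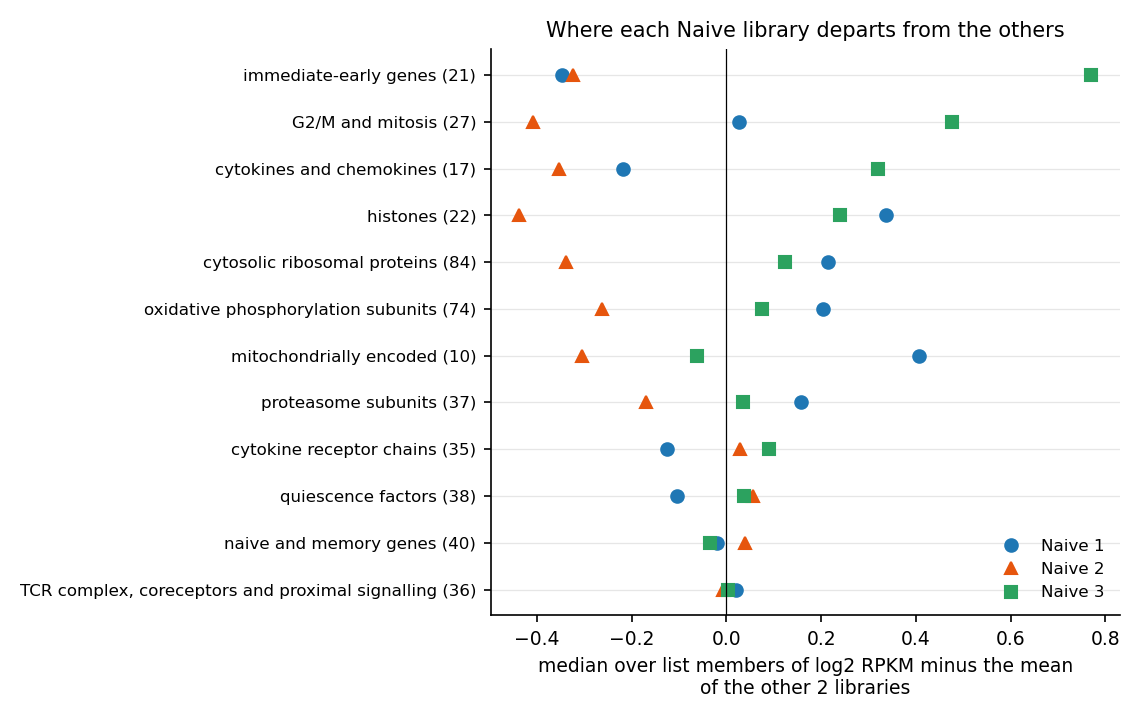
Median over the members of 12 gene lists of log2 RPKM in a Naive library minus the mean of the other 2 libraries (horizontal), with the number of members in brackets. Naive replicate 3 stands at 0.77 for immediate-early genes, replicate 2 is lowest for ribosomal and mitochondrial genes, and the 3 replicates coincide for the T cell receptor complex.

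The Naive libraries were set against the antigen groups to show which parts of the resting profile were shared with antigen-exposed cells. The contrast was Naive minus the mean of the 4 antigen groups, in limma with Benjamini-Hochberg adjustment over 9793 genes. Of these, 45.9% were called at an adjusted p under 0.05, 22.4% as higher and 23.5% as lower in Naive. The median difference over all genes was 0.01 on the log2 scale.

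Tcf7, the highest gene of the naive and memory list, was not called. It differed by 0.10 ± 0.12 (SE) on the log2 scale (adjusted p = 0.50), with overlapping values. Klf2 was higher in Naive by 1.35 ± 0.11 (adjusted p = 1.2e-06) and Il7r by 2.48 ± 0.17 (adjusted p = 3.0e-07), and neither overlapped the 11 other libraries. Among all 9793 genes tested, 894 were called higher and 727 lower in Naive without overlap. Of 40 naive and memory genes, 27 were higher and 3 lower in Naive, and of 35 cytokine receptor and proximal signalling genes, 21 were higher and 3 lower. The shares over all genes tested were 22.4% higher and 23.5% lower.

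The largest excess in Naive among genes without overlap was in Igfbp4, a binding protein of insulin-like growth factors. It stood at 112, 109 and 99.5 RPKM in Naive, against 1.54 to 30.9 RPKM with a median of 7.97 RPKM in the 11 antigen libraries (log2 difference 3.62 ± 0.29, adjusted p = 8.3e-07). Itgae, the integrin chain CD103, stood at 55.4, 45.7 and 49.3 RPKM, against 2.59 to 14.7 RPKM (2.76 ± 0.24, adjusted p = 1.6e-06). Ccr9, a receptor for gut homing, stood at 60.5, 43.2 and 46.0 RPKM, against 1.86 to 17.5 RPKM (2.74 ± 0.35). Fam211b (3.04 ± 0.27) and Plaur (2.72 ± 0.33), which encodes the urokinase receptor, completed the 5 largest, at 2.11 and 1.89 with a pseudocount of 1 RPKM. Ccl5 was likewise higher in Naive without overlap, by 2.03 ± 0.43 (adjusted p = 0.0017), while Nkg7 differed by 0.11 ± 0.12 (adjusted p = 0.44).

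The largest deficits were in inhibitory receptors and division genes. Genes had to reach a mean of 1 RPKM over all libraries to be tested. Those under 1 RPKM in Naive passed mainly through higher antigen libraries, so their direction was largely fixed beforehand. Of 480 such genes, 247 were tested, and 209 were called lower and 0 higher in Naive. This covers Lag3, Pdcd1, Hmmr, Kif4 and Cd22, but not Ccnb2. Lag3, with the Naive values given above, stood between 9.95 and 145 RPKM in the antigen libraries (-5.98 ± 0.50, adjusted p = 1.1e-06), and Pdcd1 between 2.33 and 33.9 RPKM (-5.33 ± 0.48, adjusted p = 1.7e-06). Hmmr, a hyaluronan receptor of the mitotic spindle, stood at 0.55, 0.16 and 0.50 RPKM in Naive, against 0.84 to 24.1 RPKM (-4.93 ± 0.42). Kif4 (-4.87 ± 0.40) and Ccnb2 (-4.77 ± 0.38), which encodes cyclin B2, followed. The sizes depended on the scale and the groups: with a pseudocount of 1 RPKM the differences were -4.66 for Lag3, -3.55 for Pdcd1, -3.17 for Hmmr and -2.83 for Kif4, and without the SIINFEKL group they were -5.73 for Hmmr, -5.73 for Kif4 and -5.62 for Ccnb2. All 27 mitotic genes and 31 of 32 replication genes were lower in Naive, against 23.5% of all genes tested. In Naive, 11 of the mitotic and 6 of the replication genes had a mean under 1 RPKM. Cd22, whose direction was likewise largely fixed by the filter, was lower in Naive as well (-4.12 ± 0.11). Of 19 markers of other cells that were tested, 3 were higher and 4, with Cd22 among them, lower in Naive, against 22.4% and 23.5% of all genes tested. The part of these markers in the results was not tested.

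Gene groups of protein synthesis and energy went different ways. Their counts stand beside 22.4% called higher and 23.5% called lower among all genes tested. Of 84 ribosomal protein genes, 27 were higher and 1 lower in Naive, but 8 were higher without Naive replicate 1, 8 without replicate 3 and 49 without TER119-SIINFEKL replicate 1, and quantile normalization gave 31 higher and 9 lower. Of 37 proteasome genes, 29 were lower and none higher in Naive, and 16 were lower without Naive replicate 2. Of 74 genes of oxidative phosphorylation, 39 were lower, and of 75 mitochondrial ribosomal protein genes, 38 were lower and 1 higher; without Naive replicate 2, each of these groups had 22 lower. Of 38 quiescence factors, 23 were higher and 5 lower, with 15 higher without Naive replicate 2 and 13 without replicate 3. Of 21 immediate-early genes, 7 were higher and none lower, and 2 were higher without replicate 3.

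**Figure D5:**
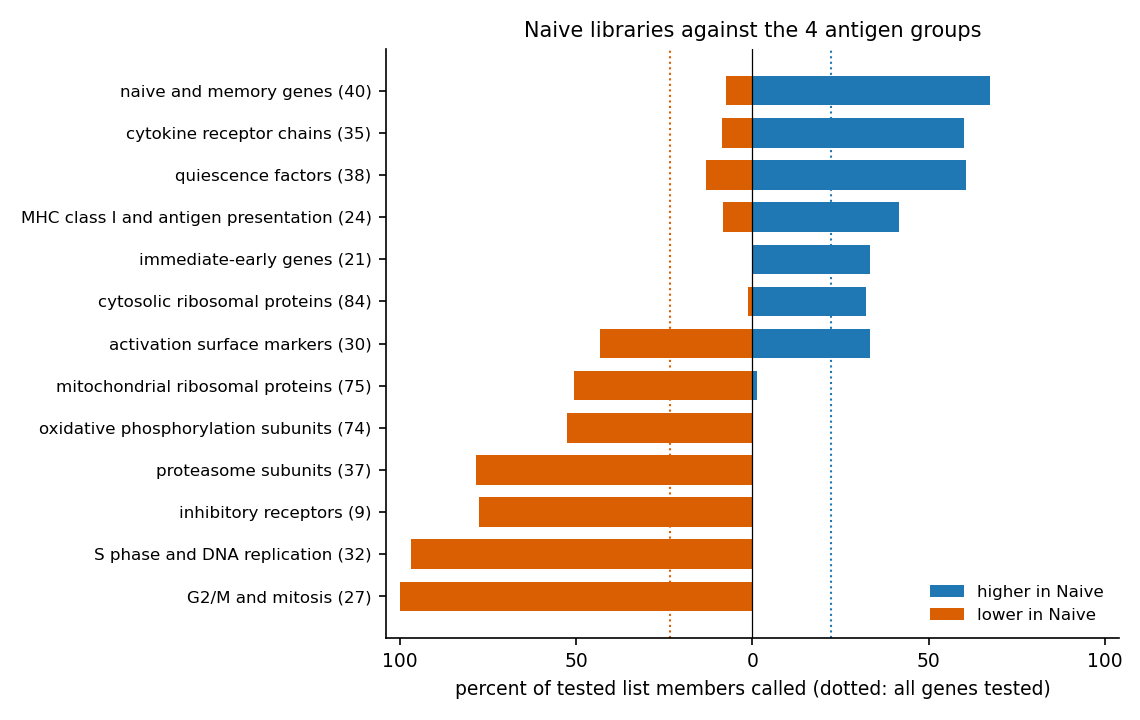
Percent of tested members of 13 gene lists called higher (right, blue) or lower (left, orange) in the 3 Naive libraries than in the mean of the 4 antigen groups, with the number tested in brackets and dotted lines at 22.4% and 23.5% for all genes. Naive and memory genes lie mainly on the right, and the G2/M list lies wholly on the left.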

How the data were processed

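Poly(A) RNA libraries were stranded (TruSeq), per the labels' protocols. Per the submitters' processing notes, the builds were GRCm38 and mm10 and the tools were edgeR, STAR 2.4.2 and bcl2fastq 2.17.1.14, with no role or order given. The authors deposited log2 RPKM for 10106 genes and 14 libraries. Filter, gene lengths, prior count and treatment of reads with several matches are not given in the sources used here, nor is the depth.

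RPKM was recovered as 2 to the deposited value, and levels are geometric means unless each library is given. Genes were ranked by mean log2 RPKM over the 3 Naive libraries. Positions and gene types come from GENCODE for GRCm38, matched by identifier for 10027 genes; 79 had no match. Promoters come from RefSeq (GRCm38.p6). Replicate numbers come from the labels.

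Limma 3.58.1 in R 4.3.3 was fitted with 5 group means and a trend of variance on level (9 residual degrees of freedom) to genes with a mean of at least 1 RPKM over all libraries; 313 genes were removed. Tests were two-sided, adjusted by Benjamini-Hochberg over all tested genes. The script was tested on simulated data. Genes were named by rule: the 20 highest, the 4 highest and lowest of each list, the largest and smallest SDs and deviations, and the 5 largest differences each way among called genes without overlap. The members and lists were chosen with earlier results of these data known. Some genes that the rule picks are not reported here. A gene outside the rule was chosen after its values were seen. Alternatives were 2 rescalings, other thresholds, filters and pseudocounts, a replicate block, a 2-fold requirement, and leaving out libraries. Python 3.11.15, pandas 2.3.3, numpy 2.4.6, scipy 1.17.1 and matplotlib 3.10.9 were used.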

Additional observations from a re-analysis of the deposited data

How the results depend on the processing

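Of the 20 most abundant genes, 19 remained when any 1 Naive library was left out and all 20 under both rescalings and with ranking on the linear scale. Quantile normalization over the 14 libraries lowered the share of summed RPKM in the 100 most abundant genes to 44.2% (49.4% as deposited) and that of the ribosomal list to 25.5% (28.2%). The counts of silent genes follow the threshold: 2 activation and effector genes were under 0.5 RPKM and 13 under 2 RPKM (6 under 1 RPKM), and 6 and 28 division genes (14 under 1 RPKM). Without 1 Naive library these counts were 6 to 8 and 14 to 15, the ribosomal members of the 100 numbered 56 to 58 (56 with all), the 2 shares were 48.2 to 50.8% and 27.6 to 29.1%, and the median SD was 0.10 to 0.13, which over 2 libraries is lower by construction.

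The limma contrast called 4492 genes, 325 with a 2-fold requirement (44 higher and 281 lower in Naive), 3410 to 4798 when 1 library was left out, and 5513 without the SIINFEKL group. Quantile normalization called 4630 genes, of which 55.5% were higher in Naive, against 48.8% as deposited. Same-numbered libraries correlated at -0.25 to 0.43, with 8 of 11 pairs over 0.1, among them all 3 with TER119-SIINFEKL. Since not every pair was over 0.1 and not every library correlated best with its own number, the numbers were not treated as pairing the samples; the replicate block called 4503 genes. The 10 genes with the largest differences kept direction and call in each of the 238 refits of a gene. Fam211b and Plaur were not tested at the stricter filter of 3 RPKM. Since the 10 genes were picked as the most extreme of the same data, these refits give little support. Pseudocounts, filters, median-of-ratios rescaling and the fit without trend left the count of calls within 1.5 times. With the pseudogene entries left out, as an alternative chosen after seeing the data, the 100 most abundant genes held 51.5%.

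Depth is unknown, so values under 1 RPKM have no counting interval. Genes without a row were not analysed here, and entries that share reads limit the levels of ribosomal protein genes. Groups of 3 libraries were not screened for single deviating libraries.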
